A study of Mus musculus with 10 samples.

Results

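Microglia, the resident macrophages of the retina, were read through 33 genes among the 36115 of the deposited count table, found by gene symbol. The symbols matched 34 entries, since Itgam stands under 2 overlapping identifiers, and 32 entries passed the filter on low counts. The libraries came from whole retinas of untreated mice aged 3 months on a C57BL/6 background, 5 labelled wild type (W1 to W5) and 5 labelled B6.129S2-Il6tm1Kopf/J (K1 to K5), a line in which the gene of the cytokine interleukin-6 is disrupted in every cell. Numbers only name libraries, and the labels give no sex or litter and do not say that libraries of a group came from separate mice, so the p-values speak only of the spread among these libraries, which may be technical.

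Microglia tile the retina with fine processes, clear debris and synapses, and are kept alive by signals through the receptor CSF1R. The transcription factor PU.1 and its partners switch on most of their genes, and ADP and fractalkine receptors at the surface steer their processes. Many of their activating receptors carry no signalling tail and lean on adaptor proteins, which pass the signal to the kinase SYK.

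Total counts ran from 30433373 to 38857374 per library. Il6 itself went against the labels, at 0, 0, 1, 1 and 1 counts for W1 to W5, while K1 to K5 gave 3, 3, 5, 7 and 4 (exact two-sided permutation p = 0.00794, the smallest that 252 splits allow). The table does not say which part of Il6 these reads cover, so every direction here is that of the libraries as labelled. K5 carries a second index sequence unlike that of the other libraries. All the microglial identity markers were detected: P2ry12, Tmem119, Cx3cr1, Siglech, Sall1, Csf1r and Aif1 had reads in each of the 10 libraries, and Fcrls in all but W1 and W4. Levels are given as CPM, counts scaled to library size, and all members but Lpcat2, Tgfbr1, Ctss, Csf1r and Olfml3 averaged under 5 CPM in wild type.

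Fcrls and Itgb2 rose in the libraries labelled knockout, and no member fell. These 2 of 32 tested members passed an edgeR adjusted p under 0.05. Fcrls reached the low-count filter through the libraries labelled knockout alone, so it had to differ to be tested. Without it, 1 of 31 tested members (3.23%) was called, where 2.03% of all 18965 genes tested were called, 0.859% higher and 1.17% lower. Without Fcrls the median log2 fold change of the tested members was 0.19, against 0.0018 over all tested genes, and 26 of the 31 (83.9%) had a positive sign, against 50.4% of all genes. The members were read from the same libraries, so these shares are descriptions. A positive log2 fold change means a higher level in the libraries labelled knockout. In a bulk tissue, a change in the number of cells of a type and a change in RNA per cell cannot be told apart.

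**Figure D1:**
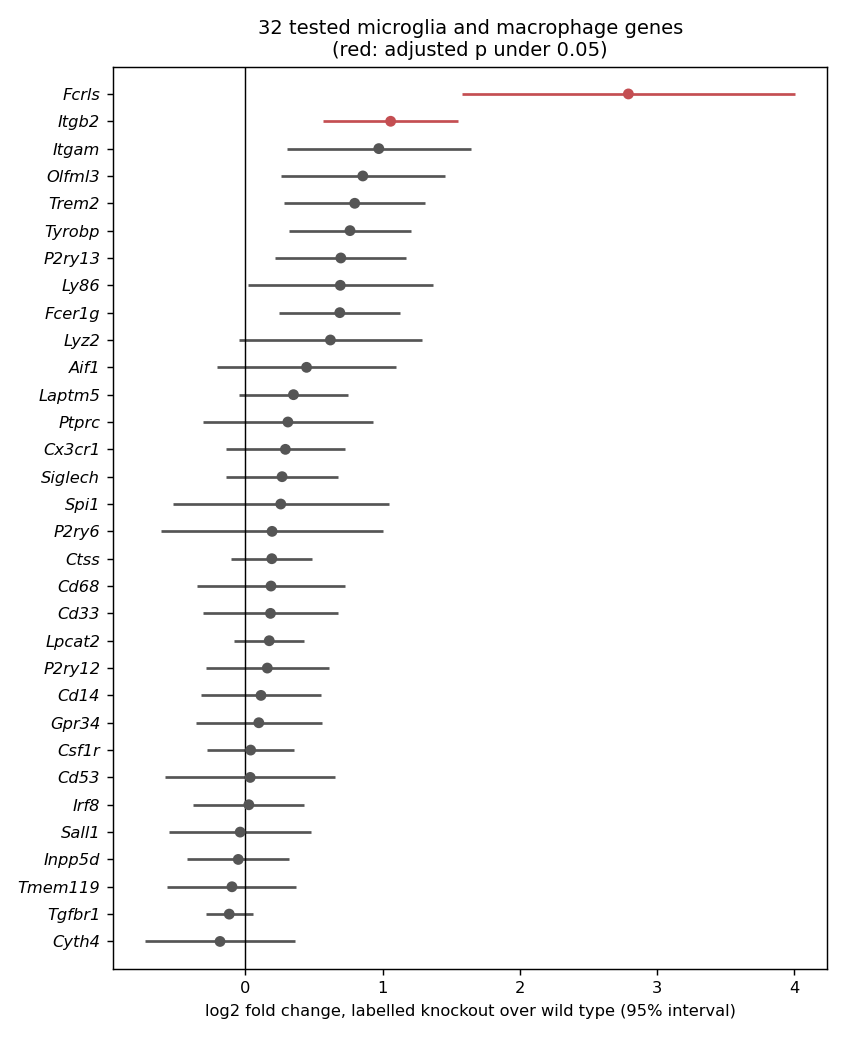
Log2 fold change (x axis, labelled knockout over wild type) of the 32 tested microglia and macrophage genes (y axis, ordered by value), with points for the edgeR estimate and lines for its 95% interval. Fcrls at 2.79 and Itgb2 at 1.06, in red, passed the adjusted threshold, but Fcrls entered the test through the libraries labelled knockout alone. The intervals of 7 further genes lie above 0. Of all tested genes, 6.78% had an unadjusted edgeR p under 0.05 with a positive sign.

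The gene that rose most was Fcrls, an Fc receptor-like scavenger receptor that mouse microglia express strongly compared with blood monocytes (ENSMUSG00000015852.13, chr3:87250758-87263738 on GRCm38, minus strand). Its counts were 0, 7, 2, 0 and 6 for W1 to W5, and 27, 17, 28, 24 and 13 for K1 to K5. In CPM these were 0, 0.216, 0.0529, 0 and 0.178 against 0.735, 0.480, 0.779, 0.720 and 0.382. All the libraries labelled knockout lay above all those of wild type, and the 2 zeros allow up to 0.0955 CPM in W1 and 0.0749 CPM in W4 (3 counts per library, counting error only). The log2 fold change was 2.79 ± 0.57 (SE, n = 5; edgeR adjusted p = 0.0177). All 5 libraries labelled knockout reached the filter's cut-off of 0.287 CPM and none of wild type did. Without K3 or K4 it lost its call (highest edgeR adjusted p 0.0547), and with at least 1 CPM asked for in 5 libraries it was not tested.

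Integrin genes came next. Itgb2 encodes CD18, the beta chain of the leukocyte integrins (ENSMUSG00000000290.13, chr10:77530252-77565708, plus strand). Its level was 0.446, 0.773, 0.581, 0.400 and 0.592 CPM in W1 to W5 and 1.25, 0.988, 1.141, 1.17 and 1.26 CPM in K1 to K5. The groups did not overlap. The means were 0.558 ± 0.146 and 1.16 ± 0.111 CPM (SD, n = 5), and the log2 fold change was 1.06 ± 0.23 (SE; edgeR adjusted p = 0.0272). The call was lost when any 1 of K3, K4, K5, W1, W3 and W4 was left out, with an edgeR adjusted p of at most 0.0684, and the log2 fold change stayed between 0.95 and 1.199 over all alternatives.

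CD18 pairs with CD11b, encoded by Itgam, to form complement receptor 3. Itgam (ENSMUSG00000030786.18, chr7:128062640-128118491, plus strand) stood at 0.573, 0.834, 0.185, 0.350 and 0.503 CPM in W1 to W5 and 1.01, 0.875, 1.09, 0.810 and 0.969 CPM in K1 to K5. W2 lay just above K4, and the other wild-type libraries lay below every library labelled knockout. The log2 fold change of 0.97 ± 0.32 (SE, n = 5) did not pass the test over all genes, with an edgeR adjusted p of 0.153, and it did pass without W2, at 0.0419. The second Itgam identifier, which overlaps the first over 3450 bases of exon, had 3 counts summed over the 10 libraries and was not tested. Cyth4, an exchange factor for ARF GTPases, stood at 1.03 ± 0.233 and 0.904 ± 0.278 CPM (log2 fold change -0.19, edgeR adjusted p = 0.813).

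**Figure D2:**
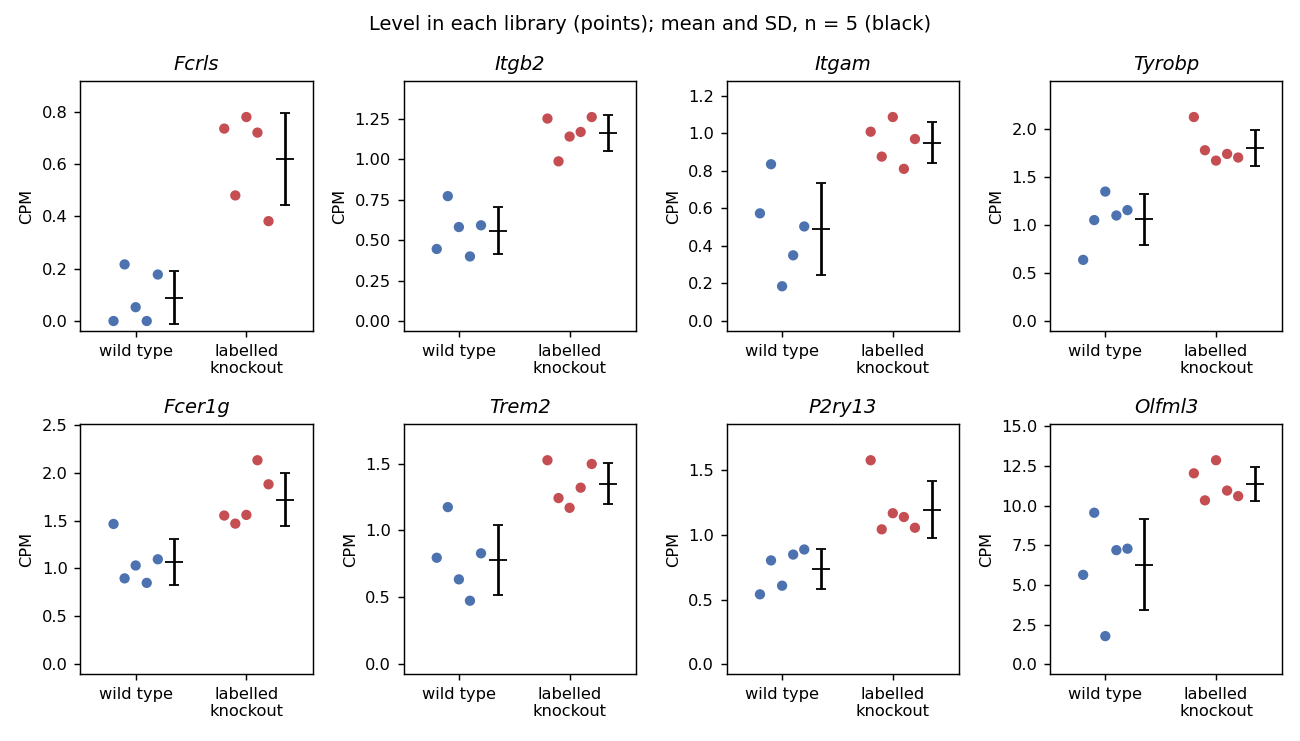
CPM (y axis) of 8 genes in each library, with blue points for wild type, red points for libraries labelled knockout, and black marks for the mean and SD of 5 libraries. All 8 had an unadjusted edgeR p under 0.05, as did Ly86, which is not shown. The groups do not overlap in Itgb2, Tyrobp, Fcer1g, P2ry13 and Olfml3, an order that 1.76% of all tested genes had. Nor do they overlap in Fcrls, where the low-count filter fixed this. They overlap in Itgam and Trem2 through W2 alone.

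None of the adaptors and their receptors passed the test, and all 4 had positive log2 fold changes, with a median of 0.73. Tyrobp encodes DAP12, the adaptor that carries the signal of TREM2 and of Siglec-H. It stood at 0.637, 1.05, 1.35, 1.10 and 1.155 CPM in W1 to W5 and 2.12, 1.78, 1.67, 1.74 and 1.70 CPM in K1 to K5, with no overlap. The log2 fold change was 0.76 ± 0.21 (SE, n = 5; edgeR adjusted p = 0.0797). DESeq2 and the fit with 1 surrogate variable called it, and it had an adjusted p of 0.0239 in the authors' deposited table.

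Fcer1g, the gamma chain that serves activating Fc receptors in the same way, stood at 1.46, 0.896, 1.03, 0.849 and 1.10 CPM in wild type and 1.55, 1.47, 1.56, 2.13 and 1.88 CPM in the libraries labelled knockout. The groups did not overlap, but W1 and K2 lay close together. The log2 fold change was 0.69 ± 0.21 (SE, n = 5; edgeR adjusted p = 0.122). Trem2, the lipid and lipoprotein receptor that signals through DAP12, stood at 0.796, 1.17, 0.634, 0.474 and 0.829 CPM in W1 to W5 and 1.52, 1.24, 1.17, 1.32 and 1.50 CPM in K1 to K5. W2 reached the lowest library labelled knockout. Its log2 fold change of 0.80 ± 0.24 gave an edgeR adjusted p of 0.124, and it was called without W2 and with 1 surrogate variable (lowest adjusted p 0.0375). Siglech, a sialic-acid-binding receptor of microglia and plasmacytoid dendritic cells, ran from 1.11 to 1.45 CPM in wild type and from 1.29 to 1.92 CPM in the libraries labelled knockout (log2 fold change 0.27, edgeR adjusted p = 0.592).

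Besides Fcrls, whose separation the filter fixed, 5 of 31 tested members (16.1%) had every library labelled knockout above every wild-type library, namely Itgb2, Tyrobp, Fcer1g, P2ry13 and Olfml3, where 1.76% of all tested genes did. No member showed the opposite order, where 1.72% of all tested genes did. An unadjusted edgeR p under 0.05 with a positive sign was reached by these 5 and by Itgam, Trem2 and Ly86, 8 of the 31 (25.8%), against 6.78% of all tested genes. No member reached it with a negative sign, against 7.03% of all. DESeq2 called 3 of 33 tested members, Itgb2, Tyrobp and Fcrls, where 1.28% of all its tested genes were called higher. Limma-voom called Itgb2 and Fcrls among 32 (background 0.881% higher). Fcrls entered limma-voom through the same filter as in edgeR, so its call there adds no separate evidence. The authors' deposited table gave an adjusted p under 0.05 to the same 3 as DESeq2 here (1.49% higher). With Fcrls counted, the number called in edgeR was 4 without W2 and 0 without K3 or K4. It was 1 without W1, W4 or K5, and that 1 was Fcrls itself.

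None of the receptors for nucleotides, lysophospholipids and chemokines passed the test. P2ry13, an ADP receptor, stood at 0.541, 0.804, 0.608, 0.849 and 0.888 CPM in W1 to W5 and 1.58, 1.04, 1.17, 1.1398 and 1.06 CPM in K1 to K5. The groups did not overlap, and the log2 fold change was 0.70 ± 0.22 (SE, n = 5; edgeR adjusted p = 0.153). Its neighbour on chromosome 3, P2ry12, is the ADP receptor that draws microglial processes to injury. P2ry12 stood at 1.53, 3.55, 2.83, 2.85 and 2.66 CPM against 3.29, 3.70, 2.31, 3.15 and 2.55 CPM. The groups overlapped, and the 95% interval of the log2 fold change of 0.16 ran from -0.29 to 0.61.

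Cx3cr1, the fractalkine receptor, stood at 2.10, 5.75, 3.54, 4.17 and 4.41 CPM in W1 to W5 and 4.79, 5.48, 4.95, 4.50 and 4.73 CPM in K1 to K5. W1 was lowest and W2 highest of all 10, with the libraries labelled knockout between them, and the log2 fold change was 0.29 (interval -0.14 to 0.72). P2ry6, a UDP receptor linked to phagocytosis, stood at 0.287 ± 0.0980 and 0.331 ± 0.145 CPM (SD, n = 5). Gpr34, a lysophosphatidylserine receptor, stood at 1.24 ± 0.206 and 1.33 ± 0.325 CPM. On the log2 scale these 2 differences were 0.19 and 0.10.

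Of the genes by which the lineage is recognised, Csf1r, Tmem119, Sall1, Irf8, Spi1, Aif1 and Tgfbr1 did not pass the test. Fcrls passed, but it entered the test through the libraries labelled knockout alone, so its call cannot be set against theirs. Csf1r, the receptor for CSF1 and IL-34, stood at 8.75, 15.1, 9.33, 9.34 and 9.21 CPM in W1 to W5 and 11.1, 11.6, 11.7, 9.21 and 9.39 CPM in K1 to K5. W2 lay above all the others, and the log2 fold change was 0.04 with an interval of -0.28 to 0.35. Its exons share 873 bases with Hmgxb3 on the opposite strand, and no source used here gives the strand setting of the counting, so reads of the 2 genes cannot be told apart there. Tmem119, a surface protein that marks resident microglia, stood at 1.27, 2.75, 2.22, 1.82 and 2.81 CPM against 2.45, 2.12, 2.20, 1.71 and 1.67 CPM, with overlapping groups and a log2 fold change of -0.10 (interval -0.57 to 0.37).

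The transcription factors were low in both groups. Sall1, which maintains microglial identity, stood at 1.151 ± 0.243 and 1.12 ± 0.329 CPM (SD, n = 5). Irf8, which works with PU.1, stood at 1.80 ± 0.404 and 1.84 ± 0.175 CPM. Spi1, which encodes PU.1, stood at 0.316 ± 0.153 and 0.378 ± 0.114 CPM, with 4 counts in W1, and its interval ran from -0.53 to 1.05, so a difference was not detectable at this depth. Aif1, the cytoskeletal protein IBA1 used to stain microglia, ran from 0.296 to 0.618 CPM in wild type and from 0.334 to 0.930 CPM in the libraries labelled knockout (log2 fold change 0.45, interval -0.21 to 1.10). Tgfbr1, the type I receptor for TGF-beta and broadly expressed, stood at 41.8 ± 2.68 and 38.5 ± 4.33 CPM (log2 fold change -0.12).

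**Figure D3:**
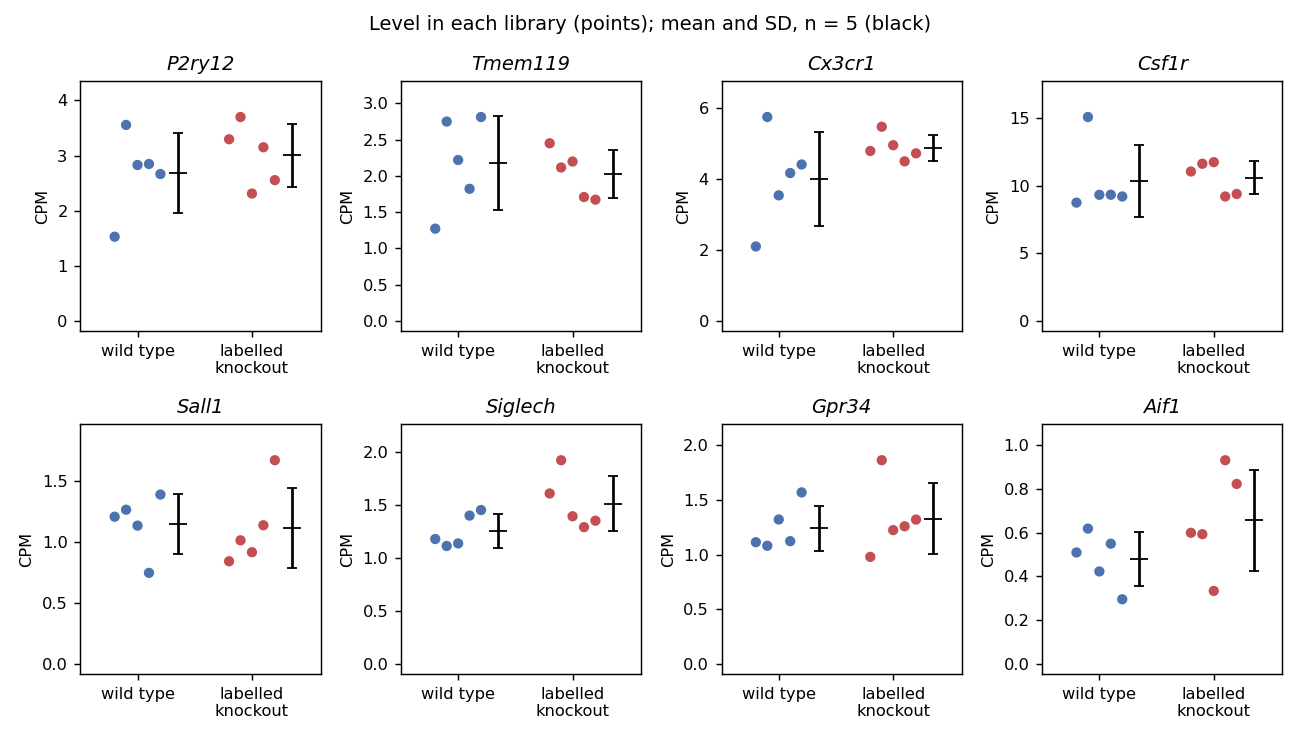
CPM (y axis) of 8 genes used to recognise microglia in each library, with blue points for wild type, red points for libraries labelled knockout, and black marks for the mean and SD of 5 libraries. The groups overlap in every panel, and W2 stands apart in Csf1r at 15.1 CPM.

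Promoters of members were searched for the core letters of a PU.1 site, because PU.1 is itself one of the members. The motif searched was GAGGAA on either strand, whose reverse complement is TTCCTC. RefSeq promoters (GRCm38.p6, 250 bases before to 50 after a gene's start) were matched for 25 members with 30 start sites. The motif was present in 16 of the 30 (53.3%), against 28.3% of all 32851 promoters, and the longer GAGGAAGT, which contains it, in 4 (13.3%), against 3.2%. Among the 9 members with an unadjusted p under 0.05, Fcrls (chr3:87263475-87263774, minus strand), P2ry13 (chr3:59210833-59211132, minus strand), Trem2 (chr17:48346151-48346450, plus strand) and Itgam (chr7:128062390-128062689, plus strand) held it, and the windows of Fcer1g, Ly86 and Olfml3 did not contain these letters. Itgb2 and Tyrobp were not matched. Over all 25 matched members 16 held it, so it was not particular to members with a low p. A link between the letters and the fold changes was not tested. These sequences are shown 5′ to 3′ with the motif in capitals, beside Ctss (chr3:95526536-95526835, plus strand), which holds the longer form and had one of the highest levels per length. A match describes letters and does not show binding.
Fcrls: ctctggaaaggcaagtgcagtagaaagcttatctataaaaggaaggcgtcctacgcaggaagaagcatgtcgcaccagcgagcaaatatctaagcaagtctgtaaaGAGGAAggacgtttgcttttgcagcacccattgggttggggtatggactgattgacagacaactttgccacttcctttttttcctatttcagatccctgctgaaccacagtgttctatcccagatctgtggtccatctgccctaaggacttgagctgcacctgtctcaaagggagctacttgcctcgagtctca
P2ry13: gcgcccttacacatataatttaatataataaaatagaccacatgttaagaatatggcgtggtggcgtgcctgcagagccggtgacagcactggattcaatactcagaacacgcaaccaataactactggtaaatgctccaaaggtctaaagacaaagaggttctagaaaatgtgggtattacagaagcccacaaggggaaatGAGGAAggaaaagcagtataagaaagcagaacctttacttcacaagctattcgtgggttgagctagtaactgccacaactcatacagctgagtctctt
Trem2: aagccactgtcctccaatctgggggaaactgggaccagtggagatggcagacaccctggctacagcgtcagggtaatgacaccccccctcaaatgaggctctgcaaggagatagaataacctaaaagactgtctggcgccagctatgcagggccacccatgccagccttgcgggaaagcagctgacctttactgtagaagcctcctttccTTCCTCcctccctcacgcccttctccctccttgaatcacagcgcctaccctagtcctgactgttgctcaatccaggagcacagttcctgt
Itgam: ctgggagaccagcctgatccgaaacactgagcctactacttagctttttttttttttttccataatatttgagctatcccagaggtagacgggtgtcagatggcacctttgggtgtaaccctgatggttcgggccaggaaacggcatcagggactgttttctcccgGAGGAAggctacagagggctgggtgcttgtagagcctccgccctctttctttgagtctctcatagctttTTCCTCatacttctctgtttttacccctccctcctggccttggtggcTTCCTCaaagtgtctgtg
Ctss: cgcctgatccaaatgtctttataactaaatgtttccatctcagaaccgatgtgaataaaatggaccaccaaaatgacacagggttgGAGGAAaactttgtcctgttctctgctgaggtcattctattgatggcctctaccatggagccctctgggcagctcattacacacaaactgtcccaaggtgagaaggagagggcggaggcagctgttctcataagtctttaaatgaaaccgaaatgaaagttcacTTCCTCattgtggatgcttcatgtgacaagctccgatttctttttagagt

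Fcrls, P2ry13 and Trem2 carried the motif once, Itgam 3 times and Ctss 2 times. The log2 fold changes of these 5 genes ran from 0.19 in Ctss to 2.79 in Fcrls, and Inpp5d, which also holds the motif, was at -0.05. Ctss encodes cathepsin S, a lysosomal protease that trims antigens for MHC class II. It stood at 7.80, 15.1, 9.86, 10.6 and 10.7 CPM in W1 to W5 and 12.7, 12.1, 12.1, 13.2 and 11.6 CPM in K1 to K5. The groups overlapped through W2, which was the highest of the 10, and the edgeR adjusted p was 0.595.

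The other lysosomal and membrane genes had positive log2 fold changes and did not pass the test. Laptm5, a lysosomal membrane protein of blood-derived lineages, stood at 1.88, 3.99, 4.04, 2.87 and 3.58 CPM in W1 to W5 and 4.19, 4.23, 4.12, 3.96 and 4.37 CPM in K1 to K5. Wild type reached the lower edge of the libraries labelled knockout through W2 and W3 (log2 fold change 0.35 ± 0.19, edgeR adjusted p = 0.435). Lyz2, the lysozyme of macrophages, stood at 0.886 ± 0.360 and 1.36 ± 0.452 CPM (SD, n = 5), a log2 fold change of 0.62, and it has the close copy Lyz1, so its reads are uncertain. Cd68, a lysosomal glycoprotein of phagocytes, stood at 1.45 ± 0.427 and 1.65 ± 0.479 CPM, and Cd53, a tetraspanin, at 0.808 ± 0.263 and 0.834 ± 0.252 CPM.

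Ly86 encodes MD-1, the partner of the Toll-like receptor homologue RP105. It stood at 0.286, 1.79, 0.925, 0.824 and 1.18 CPM in W1 to W5 and 1.47, 1.55, 1.78, 1.68 and 1.61 CPM in K1 to K5. W1 was far below the rest and W2 beside the highest library labelled knockout, and the log2 fold change of 0.69 ± 0.32 (SE, n = 5) had an edgeR adjusted p of 0.350. Cd14, the lipopolysaccharide co-receptor, stood at 1.19 ± 0.267 and 1.29 ± 0.111 CPM. Mrc1, the mannose receptor CD206 of border and perivascular macrophages, was too low for the test, at 4, 9, 0, 1 and 1 counts for W1 to W5, while K1 to K5 gave 0, 5, 8, 3 and 1.

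Phosphatases and a sialic-acid-binding receptor overlapped between the groups. Ptprc, the leukocyte phosphatase CD45, stood at 0.472 ± 0.0826 and 0.591 ± 0.218 CPM (SD, n = 5). Cd33, a sialic-acid-binding receptor, stood at 0.542 ± 0.0317 and 0.616 ± 0.0945 CPM. Inpp5d encodes SHIP1, a lipid phosphatase that damps signalling downstream of DAP12, and it stood at 3.94 ± 0.851 and 3.80 ± 0.592 CPM. In that order the differences were 0.31, 0.18 and -0.05 on the log2 scale.

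Olfml3, a secreted olfactomedin-like protein expressed by microglia and by vascular cells, had 1 wild-type library far below the others. It stood at 5.63, 9.55, 1.77, 7.19 and 7.28 CPM in W1 to W5 and 12.04, 10.3, 12.9, 10.9 and 10.6 CPM in K1 to K5. The groups did not overlap, and W3 was lowest. The log2 fold change was 0.86 ± 0.28 (SE, n = 5; edgeR adjusted p = 0.159). Without W3 the gene was called with a smaller log2 fold change of 0.62, and its adjusted p in edgeR, DESeq2 or limma-voom lay between 0.0216 and 0.285 across the alternatives. Lpcat2, an acyltransferase of platelet-activating factor synthesis, stood at 41.7 ± 7.73 and 47.0 ± 5.99 CPM (log2 fold change 0.17), and 287 bases of its exons overlap an antisense gene, Gm45472.

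Per kilobase of exon, the members differed widely in level. Lpcat2 stood highest in wild type at 12.3 ± 2.28 CPM per kilobase (SD, n = 5), then Ctss at 7.95 ± 1.95 and Tgfbr1 at 6.40 ± 0.410. Ctss and Tgfbr1 did not differ beyond their spread. Csf1r at 1.79 ± 0.461, Tyrobp at 1.59 ± 0.391 and Fcer1g at 1.22 ± 0.278 CPM per kilobase followed, again within the spread of one another. Ptprc at 0.0258 ± 0.00451 and Fcrls at 0.0383 ± 0.0435 stood among the lowest, above Mrc1 at 0.0144 ± 0.0180 CPM per kilobase. In the libraries labelled knockout, Fcrls stood at 0.265 ± 0.0758 CPM per kilobase, near Trem2 at 0.273 ± 0.0316.

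Summed over the members, levels had a wider spread in wild type than in the libraries labelled knockout, a difference in spread that was not tested. Lpcat2 and Tgfbr1 made up 57.3% of the wild-type sum, and were set aside after their values were seen. The remaining members summed to 50.2, 81.6, 54.9, 61.6 and 63.2 CPM in W1 to W5 and 77.3, 77.7, 79.2, 76.5 and 74.9 CPM in K1 to K5. W2 lay above every library labelled knockout, and the other wild-type libraries lay below all of them. The means were 62.3 ± 12.01 and 77.1 ± 1.59 CPM (SD, n = 5), a ratio of 1.24. Of these, Olfml3 alone gave 6.29 ± 2.88 and 11.4 ± 1.06 CPM, the largest difference of any remaining member. With Lpcat2 and Tgfbr1 the means were 146 ± 15.04 and 163 ± 4.96 CPM, a ratio of 1.12.

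**Figure D4:**
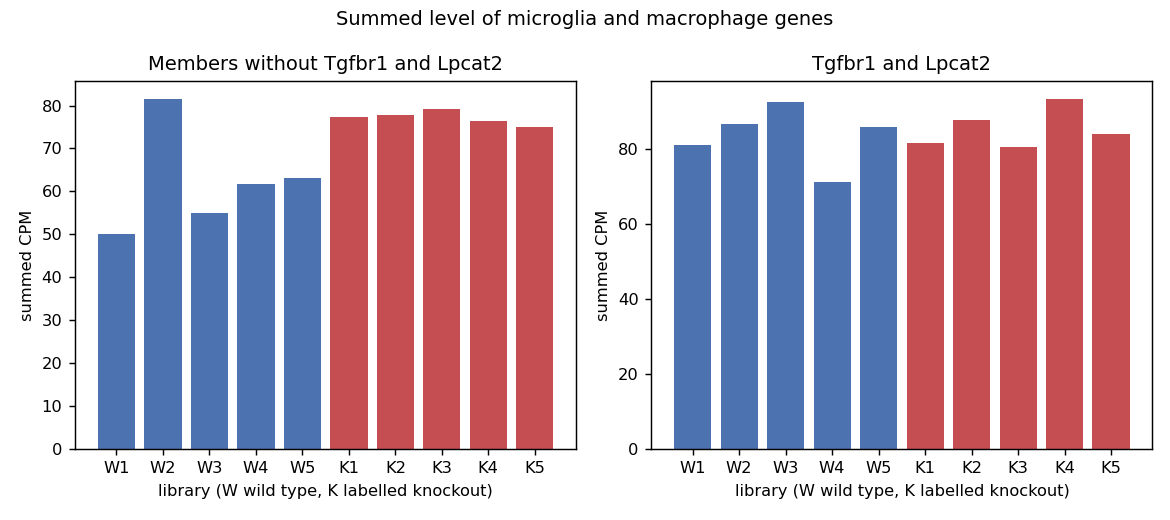
Summed CPM (y axis) per library (x axis) of the microglia and macrophage genes without Tgfbr1 and Lpcat2 (left) and of Tgfbr1 and Lpcat2 alone (right), with bars in blue for wild type and red for libraries labelled knockout. On the left the red bars lie between 74.9 and 79.2 CPM, and the blue bars spread from 50.2 to 81.6 CPM.

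W1 and W2 stood at opposite ends. W1 was the lowest wild-type library in 14 of the 32 tested members, where it was lowest in 18.6% of all tested genes, and W2 was the highest in 16, where it was highest in 27.2% of all. W2 also had the highest summed wild-type level of pigment epithelium markers (442 CPM, with the rest of wild type at 32.9 to 297 and the libraries labelled knockout at 187 to 328), of endothelial and pericyte markers (710 CPM, against 551 to 611 and 525 to 626) and of erythroid markers (60.1 CPM, against 16.0 to 38.3 and 24.0 to 55.2). Muller glia and astrocyte markers (6772 CPM, against 5058 to 5627 and 4928 to 6110) and rod markers (74414 CPM, against 58898 to 73388 and 53277 to 75171) were also highest of wild type in W2, while leukocyte markers were lowest there. No gene of the pigment epithelium, endothelial and erythroid lists passed the edgeR test (0 of 11, 0 of 13 and 0 of 5), and limma-voom called none. Of the 13 endothelial and pericyte markers, 12 (92.3%) were positive in sign, against 50.4% of all tested genes, with a median log2 fold change of 0.16. Of these markers 3 higher (23.1%) and 1 lower had an unadjusted edgeR p under 0.05, against 6.78% and 7.03% of all tested genes. Pigment epithelium markers were positive in 7 of 11, with a median of 0.11, and erythroid markers in 3 of 5, with a median of 0.04, and none of either reached that p. DESeq2 called 1 endothelial gene, Kdr, lower. None of these markers was at 0 in all libraries, and their part in the result was not tested.

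Summed markers of other immune cells overlapped between the groups. Border macrophage markers summed to 20.2 to 28.2 CPM in wild type and 19.2 to 28.8 CPM in the libraries labelled knockout. Lyve1 alone averaged 16.8 CPM of a mean sum of 25.4 CPM in wild type. In the libraries labelled knockout it averaged 14.5 of 23.0 CPM, so the overlap of the sums is mostly that of 1 gene. Of this list, 0 of 9 tested genes passed in edgeR, DESeq2 or limma-voom or reached an unadjusted edgeR p under 0.05. In sign 1 was positive, and the median log2 fold change was -0.09. An untested marker of that list, F13a1, a coagulation factor subunit made by macrophages, was named here after its values were seen. It had 2, 2, 2, 0 and 0 counts for W1 to W5, while K1 to K5 gave 3, 4, 7, 4 and 5. The groups were apart only by 2 against 3 counts, and 1.76% of all tested genes had this order. Summed counts of other untested markers in wild type and the libraries labelled knockout were 3 and 12 for Cd163 and 11 and 6 for Pf4. Markers of monocytes, neutrophils and lymphocytes summed to only 0.958 to 2.23 CPM and 1.34 to 2.40 CPM, and 2 of 18 had enough reads to be tested, neither of them called, nor at an unadjusted edgeR p under 0.05. DESeq2 and limma-voom called none either. The monocyte receptor Ccr2 had 1, 0, 0, 1 and 0 counts for W1 to W5. In K1 to K5 it had 0, 2, 0, 1 and 6, most of them in K5. Summed counts of other untested markers went either way between wild type and the libraries labelled knockout. S100a9 had 11 and 23, and Cd4 had 43 and 37. Muller glia and astrocyte markers had 0 of 8 genes called by edgeR, DESeq2 or limma-voom, and 1, lower, at an unadjusted edgeR p under 0.05. Among 9 rod markers Sag, the rod arrestin, fell by 0.67 on the log2 scale (edgeR adjusted p = 0.00267), from 7682 ± 540 to 4819 ± 646 CPM (SD, n = 5). None was called higher. In sign 4 of the 9 were positive, and 1 higher and 1 lower, Sag, had an unadjusted edgeR p under 0.05.

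Of 22 ligands, partner receptors and kinases, 19 were tested, 15 were positive in sign, and 0 passed in edgeR, DESeq2 or limma-voom, with 3 at an unadjusted edgeR p under 0.05. Csf1, which feeds CSF1R, stood at 4.27, 6.40, 4.76, 5.37 and 4.12 CPM in W1 to W5 and 5.64, 6.35, 6.51, 7.32 and 7.04 CPM in K1 to K5, with overlap through W2 (log2 fold change 0.40 ± 0.14, SE, n = 5, edgeR adjusted p = 0.207). The second CSF1R ligand Il34 stood at 7.06 ± 0.844 and 6.42 ± 0.802 CPM. Cx3cl1, the neuronal ligand of CX3CR1, stood at 127 ± 9.33 and 118 ± 12.2 CPM, and Tgfb1 at 2.09 ± 0.442 and 2.20 ± 0.246 CPM, with log2 fold changes of -0.14, -0.11 and 0.07 for these 3.

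Of 50 other microglial genes, 43 were tested and 1 rose, against 0.859% of all genes, with a median log2 fold change of 0.12. In sign 30 of the 43 (69.8%) were positive, and 7 higher (16.3%) and 2 lower had an unadjusted edgeR p under 0.05. The gene that rose was C1qc, a chain of complement C1q, which microglia make. It stood at 2.04, 3.62, 3.01, 2.05 and 2.87 CPM in W1 to W5 and 4.47, 4.94, 4.37, 5.19 and 4.14 CPM in K1 to K5, and the groups did not overlap (log2 fold change 0.77 ± 0.18, SE, n = 5, edgeR adjusted p = 0.0342). The other chains, C1qb and C1qa, stood at 3.96 ± 1.07 and 5.85 ± 0.672 CPM and at 4.38 ± 0.983 and 5.06 ± 0.715 CPM (SD, n = 5), with log2 fold changes of 0.56 and 0.21 and edgeR adjusted p of 0.128 and 0.641. C1qc lost its call without W1, W3, W4, W5, K2, K3, K4 or K5 (highest edgeR adjusted p 0.105), and DESeq2 called C1qb as well.

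Fc receptors differed in the sign of their fold changes. Fcgr1, the high-affinity receptor, stood at 1.01 ± 0.272 and 0.562 ± 0.124 CPM (SD, n = 5), a log2 fold change of -0.84 with an edgeR adjusted p of 0.128. Fcgr3, an activating receptor, stood at 0.820 ± 0.195 and 1.24 ± 0.279 CPM, and Fcgr2b, the inhibitory receptor, which does not use the chain, at 0.239 ± 0.122 and 0.450 ± 0.0667 CPM. The differences of Fcgr3 and Fcgr2b were 0.60 and 0.90 on the log2 scale, and none of the 3 passed the test. Values of Fcgr1, Fcgr2b and Fcgr3 were chosen for the text after they were seen.

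In the list of genes raised in microglia of diseased tissue, 1 of 18 tested genes was called, and it fell. Cd52, a small surface glycopeptide of leukocytes (chr4:134082448-134095082), stood at 1.85, 1.33, 1.56, 2.85 and 1.98 CPM in W1 to W5 and 0.517, 0.395, 0.445, 0.690 and 0.587 CPM in K1 to K5. The groups were well apart, and the log2 fold change was -1.86 ± 0.25 (SE, n = 5; edgeR adjusted p = 0.000690). It was called under all 17 alternatives, with log2 fold changes from -1.97 to -1.67. B2m, the light chain of MHC class I, stood at 18.2 ± 6.25 and 29.4 ± 4.20 CPM (SD, n = 5), with an edgeR adjusted p of 0.0578, and both DESeq2 and limma-voom called it higher. Among other genes of that list, also named after their values were seen, Apoe, Spp1 and Gpnmb had log2 fold changes of 0.26, 0.25 and 0.11. Lgals3 was at -0.57, and Cst7, Itgax and Clec7a had too few reads to be tested. Apoe averaged 660 CPM in wild type, against 10.3 CPM for Csf1r. In wild type Gpnmb was lowest in W5 at 6.22 CPM and highest in W2 at 33.2 CPM, as were the summed pigment epithelium markers. Which cells gave the reads of these genes was not tested.

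**Figure D5:**
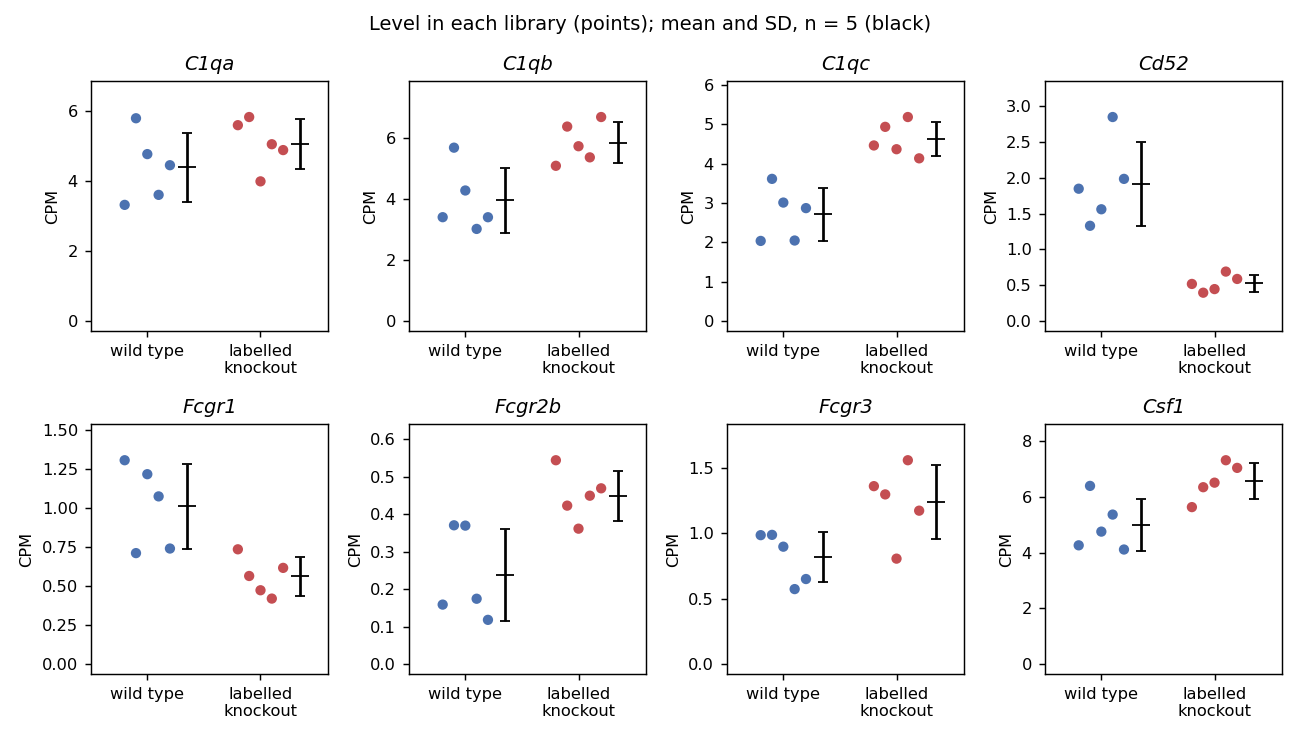
CPM (y axis) of 8 genes outside the microglia and macrophage set in each library, with blue points for wild type, red points for libraries labelled knockout, and black marks for the mean and SD of 5 libraries. C1qc and Cd52 have groups that do not overlap, in opposite directions, and the others overlap.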

How the data were processed

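RNA was measured in 10 retina libraries, 5 per genotype label. The authors deposited whole-number counts of reads per gene with no normalization, and, per the submitters' processing notes, processed them on GRCm38.p5 with STAR 2.5.3a, featureCounts 1.15.2, DESeq2 1.14, bcl2fastq and FastQC. Strand and multi-mapping settings are not given in the sources used here. A deposited DESeq2 comparison of the authors stands beside the counts, and its log2 fold changes and p-values were read for the members, while its mean signal was not used. Depth was 30433373 to 38857374 counts per library, so 3 counts came to 0.0955 CPM in W1 and 0.0749 CPM in W4, and members with few counts are imprecise.

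Genes were kept with filterByExpr (minimum count 10, total 15), scaled with TMM and tested with edgeR 4.0.16 (glmQLFit, glmQLFTest, genotype as the only term, R 4.3.3), with Benjamini-Hochberg adjustment over 18965 genes and a call at 0.05. SE is the absolute log2 fold change over the square root of F. The script was tested on simulated data. CPM per kilobase used the union of GENCODE M21 exons. Alternatives used DESeq2 1.42.0, limma 3.58.1 (voom), sva 3.50.0, other scaling and filters, and each library left out. All members are named in the text; genes of other lists are named where called, with C1qa, C1qb, Csf1, Il34, Cx3cl1 and Tgfb1, and others were named after their values were seen. 1 gene of this rule is not reported here. The members and lists were chosen with earlier results of these data known.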

Additional observations from a re-analysis of the deposited data

Results flagged for a closer look

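In 5 cases a single library lay apart from the other 4 of its group, by a gap of more than 0.71 of the group's range, among 90 groups of values examined. Chance alone flags about 1 in 20 groups. Csf1r stood at 15.1 CPM in W2, against 8.75 to 9.34 CPM in the other wild-type libraries. P2ry13 stood at 1.58 CPM in K1, against 1.04 to 1.17 CPM, and Tyrobp at 2.12 CPM in K1, against 1.67 to 1.78 CPM. Il34, a ligand of CSF1R, stood at 5.6 CPM in W1, against 7.14 to 7.73 CPM, and at 5.01 CPM in K4, against 6.58 to 6.96 CPM.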

How the results depend on the processing

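No paired analysis was possible because the labels carry no replicate numbers. The number of members called lower was 0 in the fit and in all 17 alternatives. Members called higher, 2 in the fit with Fcrls counted, numbered 0 to 4 as each library was left out in turn. They numbered 1 with at least 1 CPM in 5 libraries, where Fcrls was not tested, and 4 with 1 surrogate variable. Without Fcrls, an alternative chosen after seeing the data, the number was 1. Over all genes, 163 were higher and 222 lower, which became 71 to 253 and 140 to 289 as each library was left out, 319 and 444 with DESeq2, 298 and 406 with no low-count filter, and 306 and 358 with 1 surrogate variable. The lists beside the members had 3 called genes, 2 to 7 as each library was left out, 6 with DESeq2, 5 with no low-count filter and 6 with 1 surrogate variable. The median log2 fold change of the members stayed positive, from 0.17 to 0.31 over 19 alternatives. The ratio of summed levels, 1.12, was 1.09 to 1.16 as each library was left out and 1.24 without Tgfbr1 and Lpcat2, also chosen after seeing the data. The cause was not tested. Some uncalled genes near 0 changed sign as each library was left out, with log2 fold changes of -0.0700 to 0.12 for Irf8, -0.0163 to 0.21 for Csf1r, -0.11 to 0.19 for Cd53, -0.14 to 0.0532 for Inpp5d, -0.23 to 0.0475 for Sall1, -0.24 to 0.0102 for Tmem119, -0.0123 to 0.16 for Tgfb1, -0.0120 to 0.35 for P2ry6 and -0.0554 to 0.19 for Gpr34. At these depths, members under about 0.5 CPM rest on few counts per library.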
